A study of Mus musculus with 2 samples.

Results

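The genes described here are 7 genes of the red cell lineage, read in polyadenylated RNA from mouse lung. They are the alpha globins Hba-a1 and Hba-a2, the beta globins Hbb-bs and Hbb-bt, the haem synthesis gene Alas2, the anion exchanger gene Slc4a1 and the bisphosphoglycerate mutase gene Bpgm. They were picked by symbol from the 43346 genes quantified, all 7 have a row, and they carry 22 annotated transcripts. The study holds 2 libraries of 1 group, made from adult lung of C57BL/6J mice aged 8 weeks, with male and female tissue pooled. The labels number them biological replicates 1 and 2, give both the same donor record and a tissue sample record each, and do not say how many animals were pooled. The RNA was longer than 200 nt, carried synthetic spike-in RNAs (the ERCC set) and was sequenced from both ends in stranded reads of 76 bases.

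With 1 group there is no treated or control arm and no test between groups, so no p-value is given. Levels are in TPM, a unit of transcript abundance scaled for length and to the same total in each library. Differences are folds or log2 ratios of replicate 2 over replicate 1, from counts scaled by TMM, which sets most genes of both libraries to the same level. The interval beside a fold is the exact 95% Clopper-Pearson interval and covers counting error only. Gene counts summed to 48234745 in replicate 1 and 44182836 in replicate 2.

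Haemoglobin of the adult mouse is built from alpha-like and beta-like chains, each carrying a haem group, and is made in erythroid precursors. Reticulocytes, the young red cells released into blood, have lost the nucleus and still hold globin mRNA that decays as they mature. Lung is densely perfused, and tissue that is not flushed of blood brings red cell RNA into the library. The C57BL/6 strain carries the single-haplotype pair of adult beta globin genes, Hbb-bs and Hbb-bt. The labels do not say whether the lungs were perfused. In such bulk tissue, fewer cells of a type and less RNA per cell cannot be told apart.

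On build GRCm38 the alpha globins lie in tandem on chromosome 11, Hba-a1 at chr11:32283511-32284465 and Hba-a2 at chr11:32296489-32297298, both on the forward strand. The beta globins lie on the reverse strand of chromosome 7, Hbb-bs at chr7:103826534-103828096 and Hbb-bt at chr7:103812524-103813996. Alas2 is at chrX:150547375-150570638 on the forward strand, Slc4a1 at chr11:102348824-102366203 on the reverse strand, and Bpgm at chr6:34476207-34505613 on the forward strand. These positions are those of GENCODE M21, a newer annotation than the one behind the deposited values, on the same build.

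The sister copies of each globin pair are close to identical in their coding sequence, which sets how well reads can be assigned to one or the other. The coding sequences of Hba-a1 and Hba-a2, each 426 bases without the stop codon, differed at 1 base, C381T (the Hba-a1 base first, counted from the first base of the start codon). It lies in codon 127, counted from the start codon, GAC in Hba-a1 and GAT in Hba-a2, and leaves the amino acid the same. Those of Hbb-bs and Hbb-bt, 441 bases each, also differed at 1 base, C417T (the Hbb-bs base first), in codon 139, GCC and GCT, again with no change of amino acid. The stretches around these bases are shown because they hold all of the coding difference between the copies. They run from coding base 351 to 410 of the alpha genes and from 387 to 441 of the beta genes, are read 5′ to 3′ from the transcripts of the annotation, and have the differing base in capitals. All lie within the last exon, at chr11:32284313-32284372, chr11:32297130-32297189, chr7:103826668-103826722 and chr7:103812659-103812713.
Hba-a1: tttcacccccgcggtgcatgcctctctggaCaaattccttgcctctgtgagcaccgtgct
Hba-a2: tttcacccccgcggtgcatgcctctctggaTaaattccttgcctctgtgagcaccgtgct
Hbb-bs: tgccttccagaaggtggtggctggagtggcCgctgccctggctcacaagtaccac
Hbb-bt: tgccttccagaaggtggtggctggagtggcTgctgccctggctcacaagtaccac

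The untranslated ends add further differences. Transcripts were compared in windows of 76 bases, the length of 1 read. Of the 479 windows of Hba-a2-201, the coding transcript of Hba-a2, 387 or 80.8% also occurred in a transcript of Hba-a1, and of the 553 windows of Hbb-bs-201 355 or 64.2% occurred in Hbb-bt. No transcript of a globin gene shared a window with any annotated transcript of a gene outside its pair, and Alas2, Slc4a1 and Bpgm shared none with any other gene. Hence the summed counts of a pair and the counts of the other 3 genes do not depend on how reads were divided between copies. The level of a single globin gene does. The summed TPM of a pair also does, since the copies and their transcripts were assigned different lengths. Stranded paired reads reach farther than 1 window, and the windows take no account of that.

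The proximal promoters were examined because the globin genes and Alas2 differed between the libraries in the same direction. RefSeq promoter sequences (GRCm38.p6) were present for 6 of the 7 genes. The last 200 bases before the RefSeq start were identical between Hba-a1 and Hba-a2 once shifted by 3 bases, whereas Hbb-bs and Hbb-bt matched at 118 of 200 bases at their best shift. The 250 bases before the start were searched on both strands for CCAAT, for the CACCC box that Klf1 is known to bind, for the GATA-type motifs AGATAA and then TGATAA, and for the TATA-like motifs ATAAAA and then TATAAA. The motif ATAAAA can overlap the other motifs of its kind and the GATA-type motifs. Each alpha globin promoter held 1 CCAAT, 2 CACCC and 1 TGATAA. Hbb-bs held 1 CCAAT, 1 CACCC and 1 AGATAA, and Hbb-bt held 3 CCAAT, 3 CACCC and 1 TATAAA. Alas2 held 3 CACCC, 1 AGATAA, 1 ATAAAA and 1 TATAAA, and Bpgm held 3 CCAAT alone. Of the 32851 promoter windows of the table, 33.8% held CCAAT, 52.0% CACCC, 9.99% AGATAA, 7.94% TGATAA, 17.0% ATAAAA and 12.4% TATAAA, so the first pair are common in promoters. Such matches describe the sequence and do not show that a factor binds. Other forms of these motifs were not searched, so a promoter without a match may still hold one. Both stretches below hold catataag, which matches neither of the TATA-like motifs searched. One stretch of each family follows, the higher-expressed copy, ending just before the first exon, at chr11:32296382-32296488 and, on the reverse strand, chr7:103827929-103828011; capitals mark the searched motifs.
Hba-a2: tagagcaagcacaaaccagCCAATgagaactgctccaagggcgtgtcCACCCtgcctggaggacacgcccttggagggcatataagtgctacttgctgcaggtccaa
Hbb-bs: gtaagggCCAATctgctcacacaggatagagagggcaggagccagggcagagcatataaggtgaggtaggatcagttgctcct

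The libraries differ beyond the red cell genes. Among the 14708 genes that averaged 50 counts or more, the median log2 ratio was -0.0022, with the 5th and 95th percentiles at -0.92 and 0.74. A log2 ratio beyond 5 was found for 143 genes on the side of replicate 1 and 22 on the side of replicate 2. Acta1, the skeletal muscle actin gene, named after its values were seen, had 74437 counts in replicate 1 and 47 in replicate 2. Lung markers were present in both: all 7 alveolar type 2 markers and all 7 endothelial markers reached 1 TPM in each library, with summed levels of 33859 and 34487 TPM and of 3793 and 3828 TPM. Spike-ins took 2.25% of TPM in replicate 1 and 1.52% in replicate 2. With 2 libraries, none of the ratios below can be given without either one.

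Haemoglobin transcripts were among the most abundant RNAs of the lung libraries and were about 3 times as abundant in replicate 2. The 4 globin genes summed to 22869 TPM in replicate 1 and 63287 TPM in replicate 2, or 2.29% and 6.33% of all TPM (4.31% ± 2.86, mean ± SD, n = 2). As a share of gene counts, which is not scaled for length, they took 0.661% and 1.85%. Their summed counts were 318861 and 815387, a scaled fold of 3.07 (95% interval 3.05 to 3.08). The spread between the libraries was thus far wider than counting error.

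Hba-a2 had the highest mean level of the 7 genes, at 9862 TPM in replicate 1 and 25935 TPM in replicate 2, and ranked 6 and 2 among all genes by TPM. Its counts were 122849 and 315098, a fold of 3.07 (3.05 to 3.09). Hba-a1 stood at 5125 and 17648 TPM, with 54230 and 178977 counts and a fold of 3.96 (3.92 to 3.99), the largest of the 7. Both alpha genes encode the same adult alpha chain. Together they had 14987 and 43583 TPM, and their summed counts were 3.34-fold (3.33 to 3.36) higher in replicate 2. Hba-a2 took 65.8% and 59.5% of alpha globin TPM (62.7% ± 4.45, n = 2). That division rests on the sequence that the copies do not share. Of the 479 windows of Hba-a2-201, 92 did not occur in Hba-a1-201. The deposited posterior SD of the count was the same for both copies, 222 in replicate 1 and 400 in replicate 2. In replicate 1 that SD was 0.410% of the Hba-a1 count.

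The major adult beta globin of this pair was Hbb-bs, at 6889 TPM in replicate 1 and 17581 TPM in replicate 2. Its counts of 124073 and 284360 gave a fold of 2.75 (2.73 to 2.77). Hbb-bt, the minor partner, stood at 993 and 2123 TPM, with 17709 and 36952 counts and a fold of 2.50 (2.46 to 2.55). Hbb-bs took 87.4% and 89.2% of beta globin TPM (88.3% ± 1.29, n = 2), with a smaller spread than the Hba-a2 share. Together the beta genes had 7882 and 19704 TPM, and their summed counts were 2.72-fold (2.70 to 2.73) higher in replicate 2.

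Alpha globin exceeded beta globin in both libraries. The ratio of alpha to beta TPM was 1.90 in replicate 1 and 2.21 in replicate 2 (2.06 ± 0.22, n = 2). The same ratio of counts, which leaves out length, was 1.25 and 1.54. Dividing all counts by the effective length of 1 coding transcript per pair, Hba-a2-201 and Hbb-bs-201, an alternative chosen after seeing the data, gave 2.06 and 2.54. The ratio was higher in replicate 2 on each of these 3 scales, and its size depends on the length assigned to the transcripts.

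Alas2 encodes the erythroid form of 5-aminolevulinate synthase, the first enzyme of haem synthesis. It was at 46.6 TPM in replicate 1 and 104 TPM in replicate 2, with 2221 and 5338 counts and a fold of 2.88 (2.74 to 3.03). That fold lay within the range of the 4 globin folds. The globin genes together exceeded Alas2 by 491 times in TPM in replicate 1 and by 606 times in replicate 2. Alas1, the form of the enzyme found in all tissues, had 5.19 and 3.01 times the TPM of Alas2.

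Slc4a1 encodes band 3, the chloride and bicarbonate exchanger of the red cell membrane. It was close to the detection level of 1 TPM, at 0.93 TPM in replicate 1 and 1.08 TPM in replicate 2. Its counts were 146 and 165, a fold of 1.35 (1.08 to 1.70), the widest interval of the 7. The globin genes exceeded it by 24590 and 58599 times in TPM. Its deposited TPM bounds, 1.04 to 8.02 in replicate 1 and 1.20 to 8.85 in replicate 2, lay above those TPM values. For Slc4a1-201, its only transcript with counts, they were 0.78 to 1.08 and 0.91 to 1.24. Ratios to Slc4a1 in TPM are therefore approximate. The Slc4a1 interval does not reach the lowest globin fold.

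Bpgm encodes the enzyme that makes 2,3-bisphosphoglycerate, the red cell metabolite that lowers the oxygen affinity of haemoglobin. It stood at 20.1 TPM in replicate 1 and 15.6 TPM in replicate 2, and its 1165 and 1102 counts gave a fold of 1.13 (1.04 to 1.23). The TPM values run the other way from the scaled counts, so its direction depends on the scale. In TPM it exceeded Slc4a1 by 21.6 times in replicate 1 and 14.5 times in replicate 2.

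**Figure D1:**
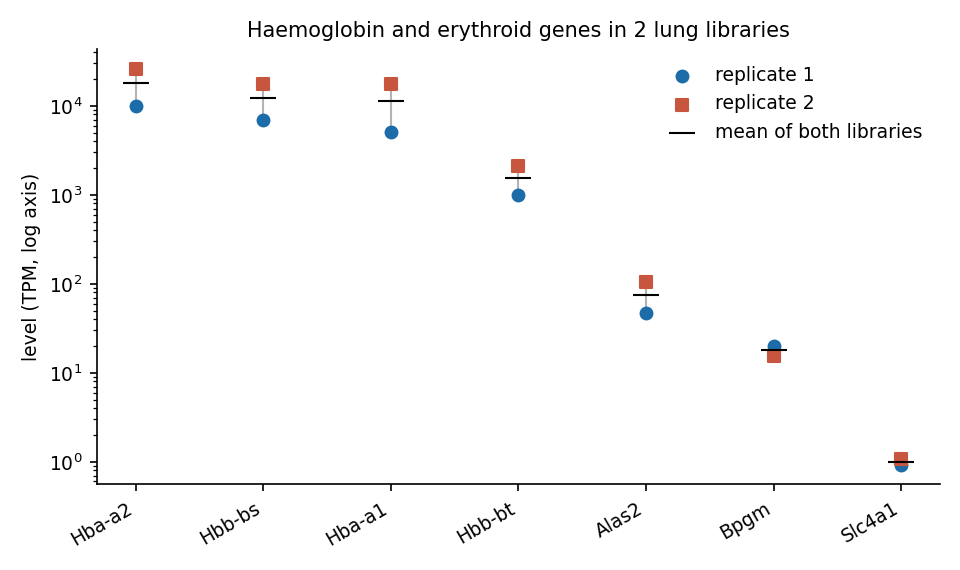
Level of each gene in TPM (log axis) in replicate 1 (circles) and replicate 2 (squares), with the mean of both libraries as a bar. The globin genes and Alas2 are higher in replicate 2, while Slc4a1 and Bpgm differ little.

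By mean TPM the order was Hba-a2, Hbb-bs, Hba-a1, Hbb-bt, Alas2, Bpgm and Slc4a1. Across the libraries the ranges of Hba-a2 and Hbb-bs overlapped, as did those of Hbb-bs and Hba-a1. These genes share the difference between the libraries, so overlap does not decide their order, and ratios within each library are given. Within a library, Hba-a2 exceeded Hbb-bs by 1.43 and 1.48 times, the same order in both. Hbb-bs to Hba-a1 was 1.34 in replicate 1 and 0.996 in replicate 2, so their order was not kept. The other neighbours did not overlap: Hba-a1 exceeded Hbb-bt by 5.16 and 8.31 times, and Alas2 exceeded Bpgm by 2.32 and 6.69 times.

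On the log2 scale the ratios of replicate 2 over replicate 1 were 1.98 for Hba-a1, 1.62 for Hba-a2, 1.53 for Alas2, 1.46 for Hbb-bs, 1.32 for Hbb-bt, 0.43 for Slc4a1 and 0.18 for Bpgm. Hence 5 of the 7 genes reached a 2-fold difference towards replicate 2, against 2.21% of all genes that averaged 50 counts or more (325 of 14708). The median of the 7 was 1.46. Scaled to the spike-ins, an alternative chosen after seeing the data, the median of all genes moved to 0.35 and that of the 7 genes to 1.81. The share of 2-fold genes that were higher in replicate 2 was 33.2% under TMM, 68.6% under spike-in scaling and 19.1% by TPM with 0.1 added. The median of the 7 genes stood 1.33 to 1.46 above the median of all genes under each scaling tried. This holds for the median and not for each gene, as the ratios of Slc4a1 and Bpgm show.

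**Figure D2:**
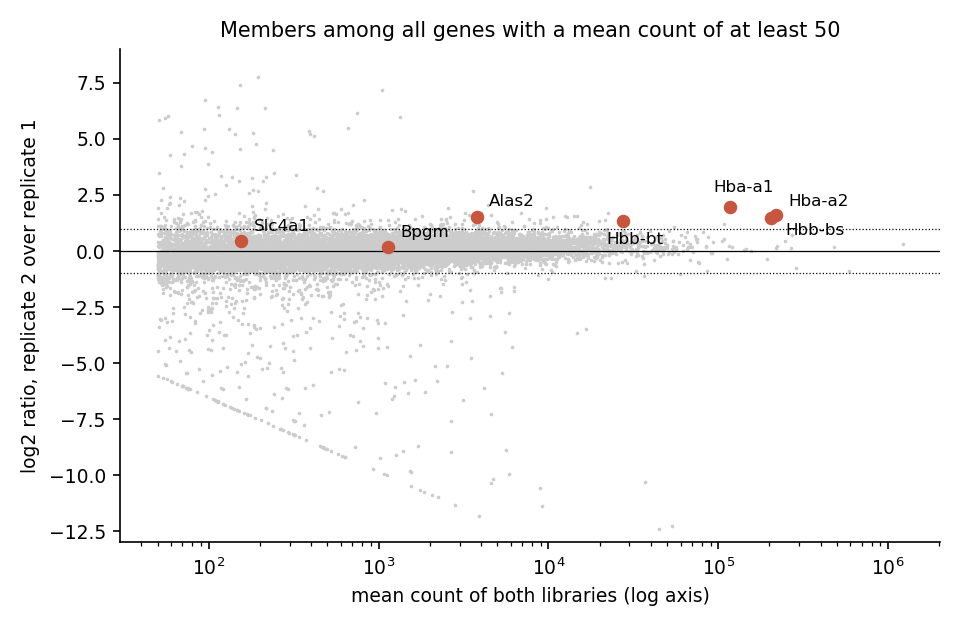
Log2 ratio of replicate 2 over replicate 1 against the mean count (log axis) for all genes that averaged 50 counts or more (grey) and the 7 genes (coloured); dotted lines mark a 2-fold difference. The 4 globin genes and Alas2 lie above the upper dotted line, Slc4a1 and Bpgm below it.

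Of the 791 genes that averaged 10000 counts or more, 22 exceeded a 2-fold difference towards replicate 2, and the 4 globin genes are among them. For likeness of pattern, the 5 genes averaging 1000 counts or more whose log2 ratio lay nearest the globin median of 1.54 were taken, out of 7375 genes. They were Klf2 at 1.53, Npr3 at 1.55, Rgcc at 1.51, Bpifa1 at 1.57 and Plin1 at 1.51. Klf2 is an endothelial transcription factor, Npr3 a natriuretic peptide receptor, Bpifa1 an airway secretory protein and Plin1 a lipid droplet protein of adipocytes. Over 2 libraries a ratio is a single number per gene, and 37 of the 7375 genes were at or above the lowest globin ratio.

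The transcripts behind these gene totals were unevenly used. Of the 22 transcripts, 16 had a count in at least 1 library. Hba-a2 was nearly all its coding transcript, Hba-a2-201, at 99.99% of the gene's TPM in both libraries. Its sister was not: Hba-a1-202, a transcript of class retained intron in the later annotation, took 96.1% and 98.5% of Hba-a1 TPM, with 50672 and 174476 estimated counts. The coding transcript Hba-a1-201 held 3558 and 4501 counts. The equivalent transcript of Hba-a2, Hba-a2-202, held 10.7 and 24.1 counts.

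Hba-a1-202 covers 113 of the 122 bases of intron 1 and the remaining coding exons, and lacks the first coding exon. Of its 419 windows of 76 bases, 343 or 81.9% also occurred in Hba-a2, 308 in Hba-a1-201, and none was found in Hba-a1-202 alone. The base C381T that separates the copies lies in all 4 alpha transcripts. Hba-a1-201 is annotated with a longer first exon than Hba-a2-201 and has 161 windows of its own, against 16 for Hba-a2-201. The files give no reads, so how many reads cross intron 1 of Hba-a1 was not tested.

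**Figure D3:**
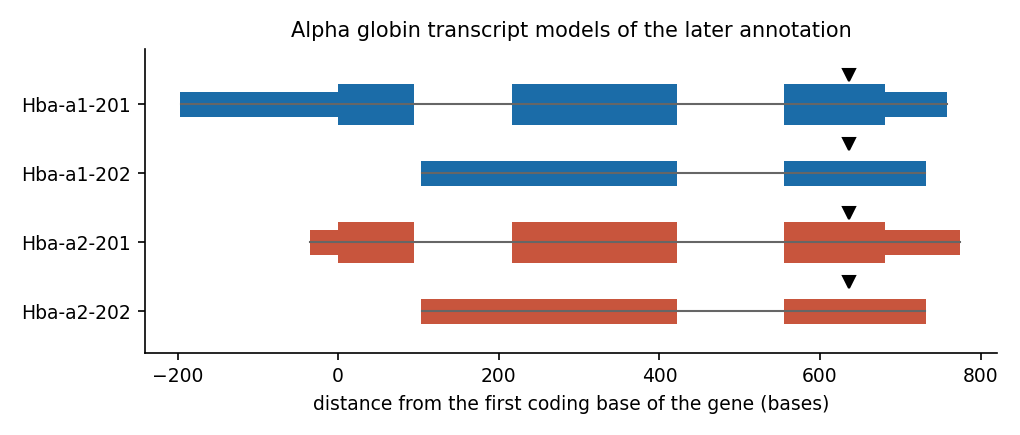
The 4 alpha globin transcripts drawn by distance from the first coding base of each gene, in bases; tall boxes are coding sequence, low boxes are other exon sequence, lines are introns and triangles mark the base that differs between the copies. Both transcripts numbered 202 start inside intron 1 and include the differing base.

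The beta pair showed a like split. Hbb-bs-201, the coding transcript, took 69.4% and 52.0% of Hbb-bs TPM, at 4778 and 9149 TPM. Hbb-bs-202, also of class retained intron, took 30.6% and 47.9%, at 2111 and 8429 TPM, a ratio of 3.99 in TPM against 1.92 for Hbb-bs-201. The deposited bounds for Hbb-bs-202 were 2020 to 2153 TPM in replicate 1 and 8247 to 8443 TPM in replicate 2; no source used here states their level. Hbb-bs-203 held 8.35 and 19.6 counts, and Hbb-bt has the single transcript Hbb-bt-201.

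Added over the globin genes, transcripts of class retained intron took 30.8% of globin TPM in replicate 1 and 40.8% in replicate 2 (35.8% ± 7.09, n = 2). In TPM they were 3.67-fold higher in replicate 2, and the other globin transcripts 2.37-fold. Outside the globin genes, transcripts of that class took 6.48% and 6.68% of TPM, at 0.993 times the level in replicate 2. A class was found for 97.9% of the mouse transcripts. These shares are the authors' division of reads among overlapping models, and the models of Hbb-bs were longer in the annotation used for quantification (778 and 549 bases for 201 and 202) than in the later one (628 and 344).

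All 4 transcripts of Alas2 had a count, with Alas2-203 at 1.19 and 1.09 counts. Alas2-201 kept 52.5% and 52.3% of TPM, Alas2-202 took 14.3% and 24.4%, and Alas2-204, of class processed transcript, took 33.0% and 23.2%. By counts Alas2-201 held 72.7% and 65.9%, since Alas2-204 is short. Slc4a1 was read on Slc4a1-201 alone, with the other 4 transcripts at 0 counts. Bpgm-201 was at 14.99 TPM in replicate 1 and 15.4 TPM in replicate 2. Bpgm-205, a short coding transcript, had 69.5 counts in replicate 1 and 0.46 in replicate 2, or 24.8% and 0.22% of Bpgm TPM. The higher Bpgm TPM of replicate 1 therefore sits on Bpgm-205.

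**Figure D4:**
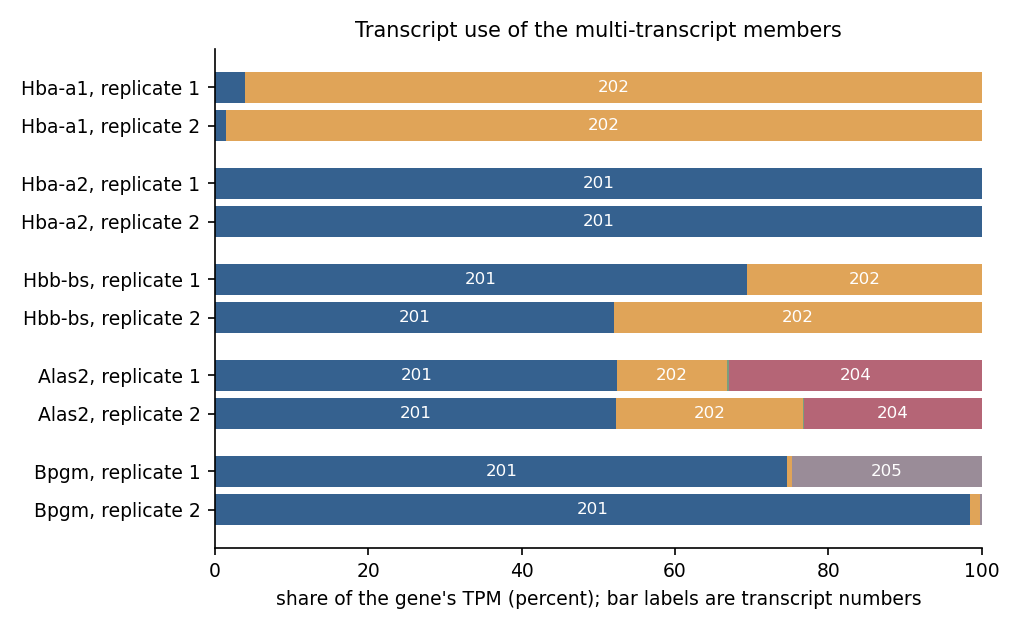
Share of the gene's TPM in percent on each transcript, in both libraries, for the 5 genes with more than 1 transcript in use; numbers in the bars are transcript numbers. Hba-a1 is almost wholly transcript 202 and Hba-a2 wholly 201, while 202 takes more of Hbb-bs in replicate 2.

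The wider red cell programme was followed through 83 further genes in 8 lists. Of the 71 that averaged 10 counts or more, 5 reached a 2-fold difference towards replicate 2 and 2 towards replicate 1. The shares over all 17334 genes past that minimum were 3.37% and 6.69%. The median log2 ratio of the 71 was 0.12. The ratios of the globin genes and Alas2, from 1.32 to 1.98, thus stood above that median.

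The embryonic and minor globins were at or near zero. Hba-x, Hbb-bh1, Hbb-bh2 and Hbb-bh0 had 0 counts in both libraries, which allows up to 3 counts each. Hbb-y, an embryonic beta-like globin, had 5 counts in replicate 1 and 0 in replicate 2. Hbq1a and Hbq1b, the theta globins, had 15 and 17 counts and 17 and 8 counts.

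The other 8 haem synthesis enzymes were present at 1 TPM or more in both libraries, and none was 2-fold different. Their median log2 ratio was -0.0014. Alas1 was highest of them at 0.54, with 14034 and 16994 counts, and Fech, which inserts iron into the porphyrin ring, stood at 27.1 and 21.7 TPM. None of the 9 measured genes of globin chaperoning and iron supply was 2-fold different either. Tfrc, the transferrin receptor of iron-importing precursors, had 1536 and 821 counts (log2 ratio -0.64). Slc25a37, which imports iron into erythroid mitochondria, had 2841 and 2846 counts but 20.0 and 39.8 TPM.

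Of the 18 red cell membrane and blood group genes, 14 passed 10 counts, with a median of -0.04. Of these, 2 reached a 2-fold difference towards replicate 1 and 1 towards replicate 2, against 6.69% and 3.37% of all genes past that minimum. Sptb, the beta spectrin of the red cell skeleton that is also made in muscle, had 1060 and 339 counts (log2 ratio -1.38), and Ermap had 36 and 8. Epb42, which links band 3 to the skeleton, had 5 and 6 counts, and Rhag had 2 and 0. Both thus had few reads in libraries that held 318861 and 815387 globin counts.

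Of 12 precursor genes, 9 passed the minimum, with a median of 0.45. Of these, 4 reached a 2-fold difference towards replicate 2 and none towards replicate 1. The shares over all genes past that minimum were 3.37% and 6.69%. Among the 4 were Car1 with 14 and 363 counts, Tspo2 with 5 and 24, and Trim10 with 5 and 17. Car1 is a carbonic anhydrase of red cells and also of colon epithelium; Muc2, the intestinal mucin gene, chosen after its values were seen, had 48 and 2619 counts, and its part in the Car1 difference was not tested. Of the 10 erythroid transcription factors, 9 passed the minimum, with a median of 0.40 and none 2-fold different. Gata1, the master regulator of the lineage, had 98 and 42 counts (log2 ratio -0.93). Klf1, the erythroid activator of beta globin, had 6 and 10 counts and lay below the minimum.

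The 12 reticulocyte maturation genes had a median of 0.26, and 10 of the 12 had a ratio above 0. Bnip3l, which drives the removal of mitochondria in maturing reticulocytes, had 2492 and 2111 counts (log2 ratio 0.02).

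Markers of other blood cells differed by list. Neutrophil markers summed to 158 TPM in replicate 1 and 64.3 TPM in replicate 2, with a median of -0.99. Of the 10, 5 reached a 2-fold difference towards replicate 1, against 6.69% of all genes averaging 10 counts or more. Platelet markers summed to 169 and 112 TPM, with a median of -0.35 and none 2-fold different. B cell and T cell markers had medians of -0.28 and -0.33. Monocyte markers, with 4 higher and 4 lower, had a median of 0.0037. The monocyte list summed to 776 and 918 TPM, but Ace alone held 624 and 774 TPM of it. That sum therefore follows mostly 1 gene. No marker of these lists was at 0 in both libraries. The medians of these lists lay below the ratio of each globin gene and of Alas2, and the part of blood content in the globin difference was not tested.

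**Figure D5:**
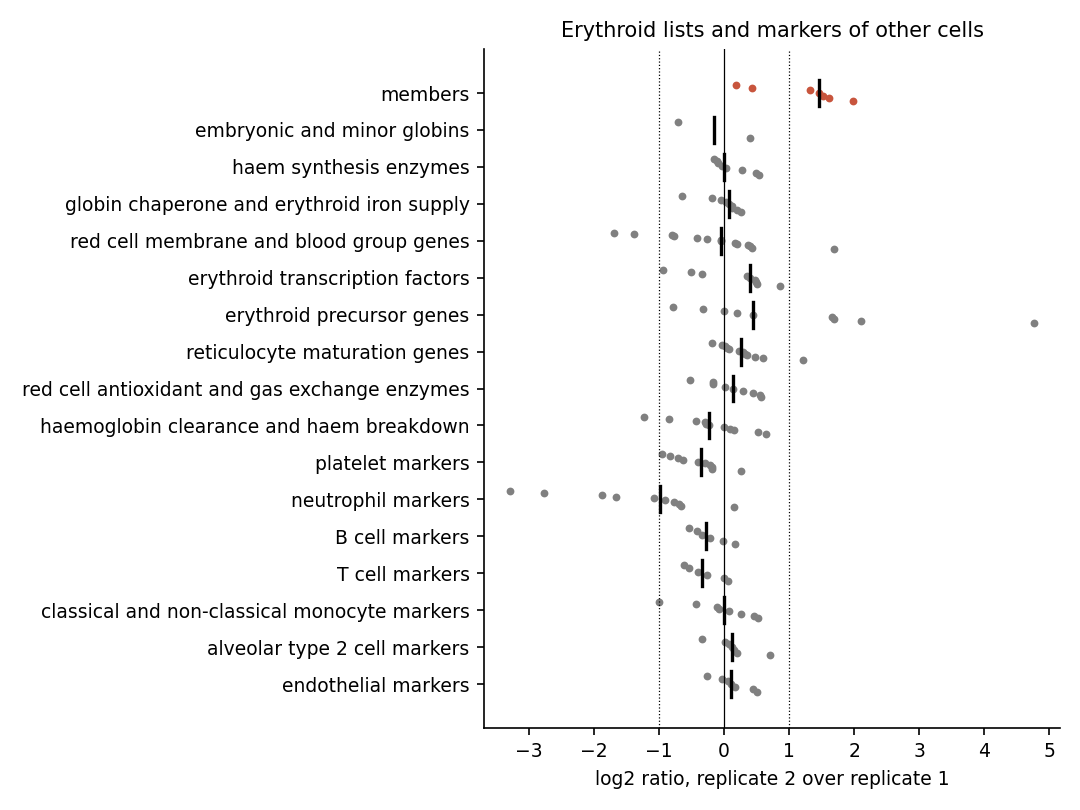
Log2 ratio of replicate 2 over replicate 1 for every listed gene that averaged 10 counts or more, 1 point per gene, with the median of each list as a vertical bar and dotted lines at a 2-fold difference. The 7 genes (coloured) have a median of 1.46, whereas the medians of the other lists lie between -0.99 and 0.45.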

How the data were processed

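Polyadenylated RNA was measured in 2 lung libraries. The authors deposited expected counts per gene and transcript, which are estimates without normalization, per the file headers. Deposited TPM sum to a fixed total that includes the spike-in rows. Deposited FPKM are per effective length and library size, per the file headers. Each transcript's percent of its gene, the posterior SD of a count and the TPM bounds are the authors' own. Reads were aligned to mm10 with annotation GENCODE M4, per the deposited file lists. The programs that aligned and quantified them were not given in the sources used here.

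Symbols, positions and transcript sequences came from the later GENCODE M21 on the same build (42462 of 43346 identifiers matched); promoters came from RefSeq. Rows naming no gene, with 0 and 2 counts, were dropped. The expected counts were then rounded to whole numbers and scaled with TMM in edgeR 4.0.16 under R 4.3.3, with a prior count of 2; DESeq2 1.42.0 gave an alternative. Intervals came from scipy 1.17.1 under Python 3.11.15. No test was possible with 1 group, and libraries of 1 donor record may differ for technical reasons alone. The scripts were tested on simulated data.

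Members and lists were chosen with earlier results of these data known. Named genes were the members, the list genes and the 5 nearest to the globin median; Acta1 and Muc2 fall outside this rule. Protein sequences were not used, so copies were compared by coding sequence. Results of some listed genes are not reported here by name; list counts and medians include them.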

Additional observations from a re-analysis of the deposited data

How the results depend on the processing

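The number of the 7 genes at least 2-fold higher in replicate 2 was 5 under every scaling and unit tried. The median log2 ratio of the 7 genes, 1.46, was 1.47 with DESeq2 size factors, 1.32 with library size, 1.16 and 1.15 by TPM with 0.1 and 1 added, 1.26 by FPKM and 1.81 scaled to spike-ins. Bpgm reversed to -0.36 and -0.34 by TPM with 0.1 and 1 added and to -0.26 by FPKM; its transcript Bpgm-205, present in replicate 1, holds the higher TPM there. The share of globin RNA, 4.31% of TPM, was 1.25% of expected counts, since globin transcripts are short. The ratio of alpha to beta, 2.06, was 1.39 by expected counts and 2.30 over the length of 1 coding transcript per pair. Of the other erythroid genes, 2 reached a 2-fold difference towards replicate 2 and 1 towards replicate 1 at a minimum of 50 counts, and 4 did so towards replicate 1 without a minimum. Of all alternatives, 59 left a result within its error, 42 moved it and 3 reversed it. The 59 include those that left out 1 library, whose outcome was fixed in advance. With n = 2, each library always lies within 1 SD of the mean. The globin share was thus scored as unchanged at 6.33% without replicate 1 and 2.29% without replicate 2. No paired analysis was possible because there is 1 group. Genes under about 10 counts, among them Klf1 and Epb42, carry ratios with wide counting intervals.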

Other observations

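Genes that clear haemoglobin and break down haem were mixed between the libraries, with 4 higher and 7 lower in replicate 2. Of 12, 11 averaged 10 counts or more; 1 reached a 2-fold difference towards replicate 1 and none towards replicate 2, against 6.69% and 3.37% of all genes past that minimum, with a median log2 ratio of -0.23. Their summed level was 7381 TPM in replicate 1 and 8780 TPM in replicate 2. Slc40a1, the iron exporter of macrophages, had 616 and 217 counts (log2 ratio -1.24). Hmox1, the haem oxygenase induced by haem, had 57.3 and 35.7 TPM. Hp, which encodes haptoglobin, the plasma protein that binds free haemoglobin, was level at 1152 and 981 TPM with a log2 ratio of -0.0055. The ferritin genes Fth1 and Ftl1, which store iron, were higher in replicate 2, with log2 ratios of 0.64 and 0.51.

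The 9 antioxidant and gas exchange enzymes of red cells had a median log2 ratio of 0.14, and none was 2-fold different. Gpx1, the glutathione peroxidase, had 897 and 1118 TPM, Car2, a carbonic anhydrase, 171 and 166 TPM, and Cat, which encodes catalase, 173 and 150 TPM.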
